A study of Homo sapiens with 60 samples.

Results

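Aucklandiae Radix is the dried root of Aucklandia lappa, a herbal drug of the daisy family whose root is known for sesquiterpene lactones. Its hot water extract was given to A549 cells, a long-established line from a human adenocarcinoma of the lung, at 500 µg/mL for 24 h (Aucklandiae 500, 3 libraries), and these libraries were compared with 3 libraries of cells that received the dimethyl sulfoxide vehicle (Vehicle). The 6 libraries were taken by their labels from the 60 RNA libraries of the series, and all genes of the deposited table entered the comparison. Further groups of 3 libraries served as references: the same extract at 20 µg/mL (Aucklandiae 20) and 100 µg/mL (Aucklandiae 100), and the water extracts of 5 other herbal drugs at 500 µg/mL, namely Polygalae Radix, Liriopis seu Ophiopogonis Tuber, Schisandrae Fructus, Longan Arillus and Zizyphi Semen. Sample labels state 0.1% dimethyl sulfoxide for Vehicle and the series design text 2%, and no label of an extract group gives a solvent level. That text also allows for lower doses of toxic extracts, so the labelled doses were used as they stand. Library names begin with A1 for Vehicle and with 4 for both Aucklandiae and Polygalae, so that treatment, library set and a possible solvent difference cannot be told apart in the comparison with Vehicle. Comparisons with Aucklandiae 20 and with Polygalae 500 stay among libraries whose names begin with 4.

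Several groups of genes recur below. Laminins are heterotrimers of the basement membrane that epithelial cells grip through integrins, and transglutaminase 2 and CD44 also link cells to the matrix around them. Selenoproteins carry selenocysteine, which is inserted at a stop codon through dedicated factors, and the messages of some of them are degraded when selenium is short. Reactive electrophiles release the transcription factor NRF2 from its inhibitor KEAP1, which raises genes of glutathione synthesis and heme oxygenase. A549 cells carry a KEAP1 mutation that keeps NRF2 active without any treatment.

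Vehicle libraries held 24.9 to 28.4 M expected counts and Aucklandiae 500 libraries 22.6 to 29.6 M, within the 17.7 to 30.6 M of the whole series. No library of either group stood apart: deviations from the group mean had a typical size of 0.072 to 0.074 on the log2 scale in all 6. Messages encoded by mitochondria made up 8.34 to 8.71% of counts in Vehicle and 7.33 to 7.85% in Aucklandiae 500. Among markers of lung epithelium, the keratins KRT8 and KRT18 were at 3240 to 3680 and 2350 to 2810 CPM (counts per 1 M counts of the library, with TMM-scaled library sizes for the gene values further on) and EPCAM at 3.91 to 5.31 CPM. The alveolar genes NKX2-1, SFTPB and SFTPC were at 0 to 0.221 CPM, whereas ABCA3, also an alveolar gene, was at 25.7 to 29.3 CPM. Markers of other cell types were low, with the 7 fibroblast markers summing to 34.1 to 34.2 CPM in Vehicle and 35.6 to 38.4 CPM in Aucklandiae 500 (DCN at 0 in both), and the 6 endothelial ones to 0.288 to 0.563 and 0.289 to 0.398. The 8 blood markers summed to 14 to 14.9 CPM in Vehicle and 10.1 to 12.1 CPM in Aucklandiae 500, with PTPRC, MS4A1, CD3E and HBB at 0 in Aucklandiae 500 and the last 3 of these at 0 in Vehicle.

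In cells given the extract at 500 µg/mL, TGM2, CD44, the integrin genes ITGA3 and ITGB1, complement C3 and the selenoprotein genes GPX1, SELENOW and DIO2 were lower, while heme oxygenase HMOX1, the serine synthesis gene PHGDH and the lipase inhibitor gene ANGPTL4 were higher. Most of these differences were small. At an adjusted p under 0.05 (edgeR), 389 of 17368 genes tested rose (2.24%) and 468 fell (2.69%), 857 in all (4.93%), and 3286 had an unadjusted p under 0.05. The median size of the change among the 857 was 0.21 on the log2 scale (quartiles 0.16 and 0.29), 19 rose and 36 fell by at least 1.5-fold, and the median log2 fold change of all genes was 0.0016. Of the 857, 849 had no overlap between the 3 and 3 libraries, against 28.0% of all genes tested. The count depended on single libraries: 545 genes passed without Vehicle replicate 1, 418 without Vehicle replicate 2, 455 without Aucklandiae 500 replicate 1 and 516 without its replicate 3, and 1840 passed when the 6 libraries were fitted alone. Leaving out the 2 groups whose libraries scattered most, which only add to the estimate of the spread, gave 1515.

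**Figure D1:**
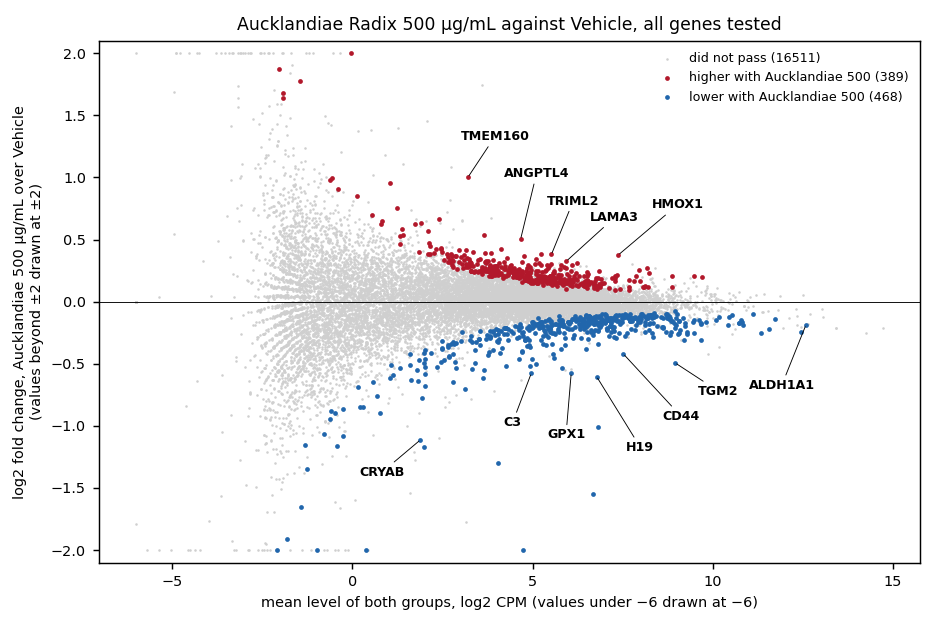
Log2 fold change of Aucklandiae 500 over Vehicle (vertical axis, values beyond 2 either way drawn at the edge) against the mean level of both groups in log2 CPM (horizontal axis), 1 point per gene tested. The 389 genes that rose are red, the 468 that fell are blue, and the median change of called genes is 0.21, so most coloured points lie close to the line at 0.

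Transglutaminase 2 and CD44 gave the smallest p-values of all genes and are named for that, after their values were seen. TGM2 (ENSG00000198959, chromosome 20, 38127387 to 38166578), which encodes a protein cross-linking enzyme, stood at 578, 595 and 573 CPM in Vehicle and at 397, 425 and 418 CPM in Aucklandiae 500, a log2 fold change of −0.49 ± 0.037 (SE, n = 3 and 3, edgeR adjusted p = 1.1e-14). All 3 treated libraries lay far below all 3 of Vehicle, and the lower doses lay near Vehicle, with 580.2, 590.0 and 586 CPM at 20 µg/mL and 562, 576 and 548 CPM at 100 µg/mL. CD44 (ENSG00000026508, chromosome 11, 35138870 to 35232402), the receptor for hyaluronan, fell from 211, 209 and 211 CPM to 151, 156 and 165 CPM (−0.42 ± 0.034, edgeR adjusted p = 6.8e-14). Its level went down at each dose, through 193, 198 and 198 CPM at 20 µg/mL and 179, 186 and 189 CPM at 100 µg/mL, and the groups did not overlap. In these bulk libraries, less message in each cell and fewer cells with the message cannot be told apart.

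Of 16 genes of laminins, their integrins and their anchoring partners, 1 rose and 4 fell, and the median log2 fold change was −0.011. LAMA3 (chromosome 18, 23689443 to 23956222), the α3 chain of laminin-332, rose from 53.6, 55.4 and 54.3 CPM to 70.5, 68 and 66.4 CPM (0.33 ± 0.057, edgeR adjusted p = 1.0e-04). Every treated library lay above every Vehicle library. LAMA4, a laminin chain of mesenchymal and vascular basement membranes, was low and fell from 2.14, 2.32 and 2.2 CPM to 1.2, 0.908 and 1.52 CPM (−0.90 ± 0.17, adjusted p = 3.5e-04), and DESeq2 gave it no adjusted p. The integrin subunits ITGA3 and ITGB1, which pair as a laminin receptor, fell by 12.6% and 11.1% from means of 374 ± 4.27 and 1799 ± 10.7 CPM (mean ± SD, n = 3; edgeR adjusted p = 1.3e-04 and 2.4e-06). LAMA3, LAMA4, ITGA3 and ITGB1 also passed against Aucklandiae 20, in the same direction.

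In a list of 23 mesenchymal genes and targets of the co-activator YAP and of TGF-β, 8 fell and none rose, 19 of the 23 lay below 0, and the median was −0.090. TAGLN, an actin-binding protein of smooth muscle and a TGF-β target, fell from 37.4, 36 and 34.4 CPM to 24.6, 25.9 and 24.5 CPM (−0.52 ± 0.079, edgeR adjusted p = 1.2e-05). ANKRD1, a nuclear ankyrin protein and YAP target, fell from 15.1, 14.4 and 17.6 CPM to 12.7, 10.7 and 12.3 CPM (−0.41 ± 0.080, adjusted p = 5.4e-04). AMOTL2, a YAP target that also restrains YAP, fell from 108, 112 and 112 CPM to 93, 94.6 and 92.6 CPM (−0.25 ± 0.038, adjusted p = 1.2e-05). In each of the 3 genes every treated library lay below every Vehicle library. For TAGLN, 1 of the 14 largest falls, the naming rule requires this. For any called gene, here and in the other paragraphs, such a gap adds little, because 849 of the 857 called genes had no overlap. The matrix genes COL5A1, LTBP2 and SPARC passed too, but their calls rested on few libraries: with 1 library left out they were lost in 4, 5 and 5 of 6 cases, at adjusted p-values of up to 0.17, 0.10 and 0.19. The cases that kept the call were those without Vehicle replicate 1 or Aucklandiae 500 replicate 2 for COL5A1, without Vehicle replicate 1 for LTBP2 and without Vehicle replicate 3 for SPARC.

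The promoter of ANKRD1 is shown because 2 copies of GGAATG, the core motif of the TEAD factors through which YAP acts, lie in it. The window (RefSeq, GRCh38.p14, chr10:90921088-90921337, minus strand) holds the 250 bases before the gene's start. Capitals mark GGAATG, 220 to 215 and 128 to 123 bases before the start, and 1 copy of TGANTCA, 195 to 189 bases before it. TGANTCA is a loose form of the motif of AP-1 factors that allows any middle base, here T.
ANKRD1 promoter: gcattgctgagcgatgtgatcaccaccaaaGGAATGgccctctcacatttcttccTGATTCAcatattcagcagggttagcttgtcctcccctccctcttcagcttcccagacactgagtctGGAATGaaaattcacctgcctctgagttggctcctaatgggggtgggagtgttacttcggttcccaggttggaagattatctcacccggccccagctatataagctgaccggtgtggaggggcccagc
Searched on both strands, GGAATG occurs in 11.9% and TGANTCA in 6.57% of 35116 RefSeq promoter windows of the same length, so a match by itself is common. Of 115 genes named by rule or panel, 88 had such a window.

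Keratins, the intermediate filaments of epithelial cells, went the same way, with 3 of 11 measured genes falling and none rising (median −0.13). KRT18 fell from 2718, 2850.2 and 2813 CPM to 2338, 2341 and 2359.6 CPM (−0.25 ± 0.034, edgeR adjusted p = 4.6e-07), without overlap. Its partner KRT8 went from 3567 ± 151 CPM to 3232 ± 112 CPM (−0.14 ± 0.038, adjusted p = 0.017), a call lost without Vehicle replicate 2, Aucklandiae 500 replicate 1 or replicate 3 (adjusted p up to 0.18). KRT80 was the third, at −0.17 ± 0.042 (adjusted p = 0.009), lost without Aucklandiae 500 replicate 1 or replicate 3 (up to 0.10).

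**Figure D2:**
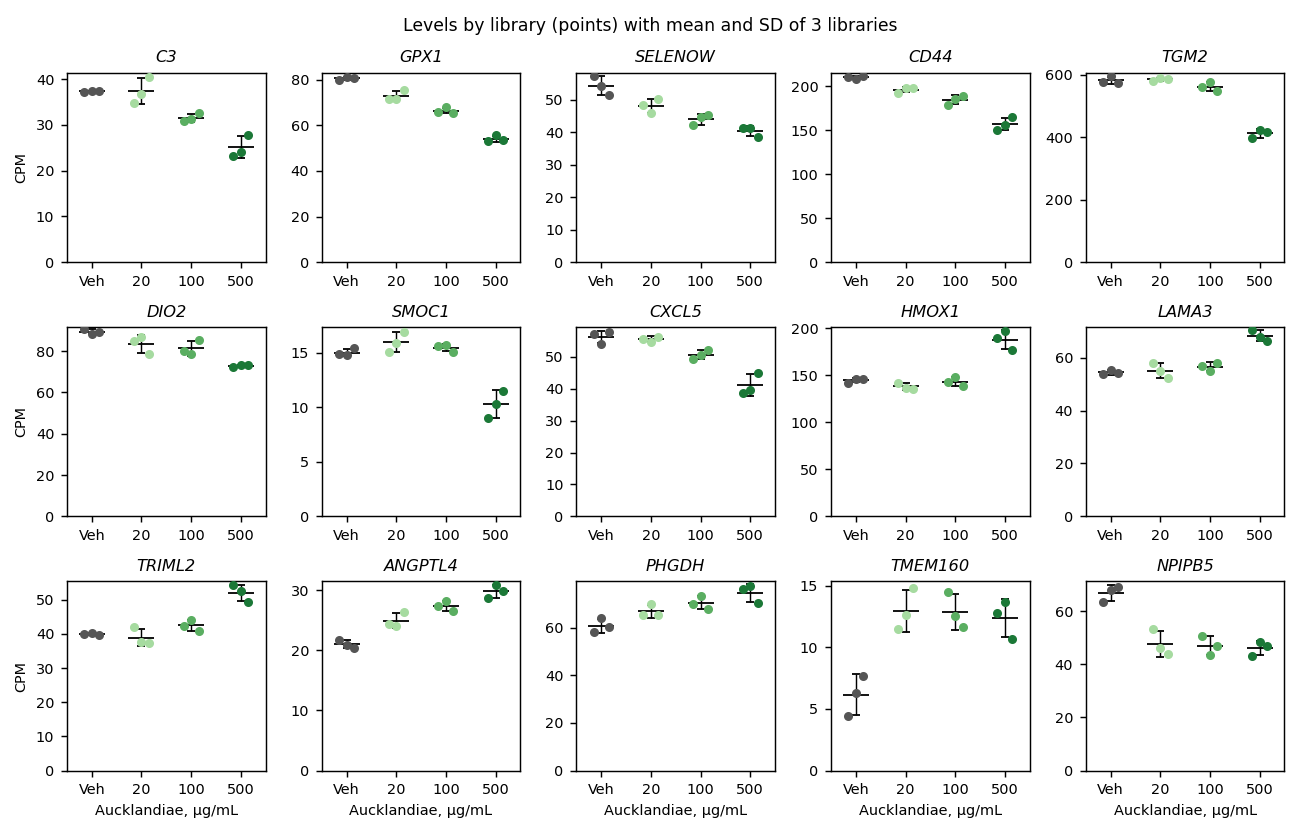
CPM of 15 genes in each library (points) of Vehicle and of Aucklandiae at 20, 100 and 500 µg/mL, with a bar at the mean and whiskers of 1 SD over 3 libraries; every axis starts at 0. The means of GPX1, SELENOW and CD44 step down from Vehicle over the doses, and that of C3 only from 20 µg/mL on. TGM2, SMOC1, HMOX1, LAMA3 and TRIML2 move at the top dose, and TMEM160 and NPIPB5 are already displaced at 20 µg/mL.

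Complement C3, the central protein of the complement cascade and an acute phase gene of lung epithelium, was among the 14 largest falls. C3 (ENSG00000125730, chromosome 19, 6677704 to 6730562) stood at 37.2, 37.4 and 37.4 CPM in Vehicle and at 23.3, 24.2 and 27.8 CPM in Aucklandiae 500 (−0.58 ± 0.086, edgeR adjusted p = 9.9e-06). The 3 Vehicle libraries were nearly equal and all treated ones lay below them, which the rule for naming the 14 falls requires. Among 21 measured complement and fibrinogen genes, 3 fell and 1 rose (median −0.0094). The protease gene C1R fell from 29, 29.5 and 29 CPM to 23.2, 24 and 24.8 CPM (−0.28 ± 0.053, adjusted p = 3.4e-04). CD55, which protects cells from complement, gave −0.18 ± 0.048 (adjusted p = 0.013, and 0.055 without Aucklandiae 500 replicate 1). FGA, the fibrinogen α chain, was the 1 riser, at 0.12 ± 0.031 (adjusted p = 0.015), a call lost without Vehicle replicate 2 or Aucklandiae 500 replicate 3 and with no filter on low counts (adjusted p up to 0.16).

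The neutrophil chemokine gene CXCL5 was the only one of 17 measured NF-κB and chemokine genes to pass. CXCL5 fell from 57, 54.1 and 57.7 CPM to 38.5, 39.7 and 45 CPM (−0.46 ± 0.058, edgeR adjusted p = 2.1e-07), with every treated library below 54.1 CPM, the lowest in Vehicle. CXCL8, a related chemokine, stood at 0.803 ± 0.0876 and 0.585 ± 0.0791 CPM and did not pass (−0.44 ± 0.26, adjusted p = 0.41).

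Selenoprotein genes moved in both directions. Of 19 measured, 5 fell and 2 rose, with a median of −0.066. Glutathione peroxidase 1, GPX1 (ENSG00000233276, chromosome 3, 49357171 to 49358600), which reduces hydrogen peroxide and is known as one of the messages most sensitive to selenium supply, stood at 79.9, 81.3 and 80.5 CPM in Vehicle and 53, 55.6 and 53.4 CPM in Aucklandiae 500 (−0.58 ± 0.072, edgeR adjusted p = 3.9e-07). At 20 µg/mL it stood at 71.6, 71.4 and 75.6 CPM and at 100 µg/mL at 66, 67.8 and 65.6 CPM, so that the group means went down at every dose and no library of one group overlapped with those of the next. SELENOW, a small thioredoxin-fold selenoprotein, fell from 57.2, 54.4 and 51.5 CPM to 41.3, 41.3 and 38.5 CPM (−0.42 ± 0.062, adjusted p = 3.7e-06). DIO2, the deiodinase that activates thyroid hormone, fell from 90.6, 88.1 and 89.4 CPM to 72.3, 73.3 and 73.1 CPM (−0.29 ± 0.039, adjusted p = 4.7e-07). The other fallers were SELENOT, a thioredoxin-like protein of the endoplasmic reticulum (−0.22 ± 0.039, adjusted p = 1.5e-04), and GPX4, the phospholipid hydroperoxidase, which lies outside the naming rule and was added after its values were seen and not refitted under the alternatives (−0.18 ± 0.055, adjusted p = 0.037).

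The risers were SEPHS2, which makes the selenium donor for selenocysteine and is itself a selenoprotein, and SELENOO, a mitochondrial enzyme that attaches AMP to proteins. SEPHS2 went from 38.3, 38.6 and 37.2 CPM to 45.8, 48.4 and 45.6 CPM (0.30 ± 0.048, edgeR adjusted p = 2.6e-05). SELENOO went from 12.7, 13 and 12.5 CPM to 15.9, 15 and 15.9 CPM (0.29 ± 0.074, adjusted p = 0.0099, and 0.051 without Aucklandiae 500 replicate 1). Thioredoxin reductase TXNRD1, the most abundant of the list in CPM, did not pass (2022 ± 30.4 and 2029 ± 23.5 CPM, 0.005 ± 0.034, adjusted p = 0.97). None of the 9 genes of the selenocysteine insertion machinery passed (median −0.036). Within the extract, GPX1, SELENOW and DIO2 also fell against Aucklandiae 20, whereas SEPHS2 and SELENOO gave 0.092 ± 0.048 and 0.067 ± 0.074 there (edgeR adjusted p = 0.62 and 0.91).

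**Figure D3:**
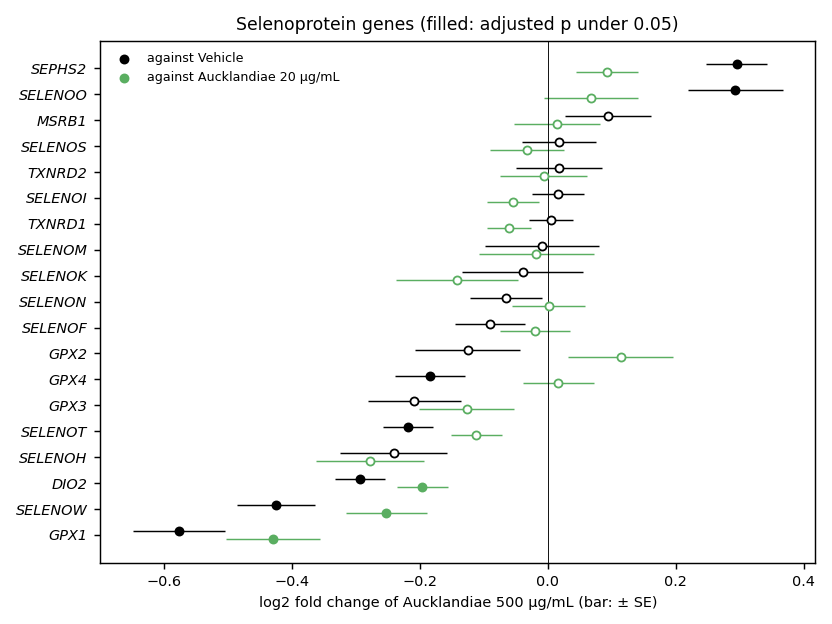
Log2 fold change of Aucklandiae 500 for the 19 measured selenoprotein genes (horizontal axis, bars are 1 SE), against Vehicle in black and against Aucklandiae 20 in green, filled where the edgeR adjusted p is under 0.05. GPX1, SELENOW and DIO2 are filled on the left in both colours, and SEPHS2 and SELENOO are filled on the right in black only.

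Genes of heme breakdown rose. Heme oxygenase HMOX1 (ENSG00000100292, chromosome 22, 35380361 to 35394214), which cleaves heme to biliverdin, stood at 142, 146 and 146 CPM in Vehicle and 189.6, 197 and 177 CPM in Aucklandiae 500 (0.38 ± 0.043, edgeR adjusted p = 2.0e-08). At the lower doses its means were no higher than in Vehicle, with 142, 137 and 135 CPM at 20 µg/mL and 143, 148 and 139 CPM at 100 µg/mL. BLVRB, a biliverdin reductase, rose from 104, 107 and 101 CPM to 122, 125 and 124 CPM (0.25 ± 0.045, adjusted p = 1.6e-04). In all, 3 of 15 heme and iron genes rose and none fell (median 0.065). The third, the heme transporter gene SLC48A1, gave 0.13 ± 0.038 (adjusted p = 0.039), which was lost without any 1 of the 6 libraries and with no filter on low counts (adjusted p up to 0.23).

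Of 22 NRF2 targets of glutathione and thioredoxin metabolism, 2 rose and 1 fell (median 0.029). GCLM, the regulatory subunit of the first enzyme of glutathione synthesis, rose from 229, 212 and 234 CPM to 274, 264 and 264 CPM (0.25 ± 0.039, edgeR adjusted p = 1.2e-05), and ME1, which supplies NADPH, rose by 12.1% (adjusted p = 0.0014). MGST1, a membrane-bound glutathione transferase, fell from 358, 356 and 332 CPM to 286, 298 and 294 CPM (−0.25 ± 0.049, adjusted p = 5.5e-04). The message of NRF2 itself, NFE2L2, fell from 127, 123 and 127 CPM to 111, 111 and 112 CPM (−0.18 ± 0.034, adjusted p = 3.1e-04). NQO1, a quinone reductase and standard NRF2 target, was at 1538 ± 6.02 CPM in Vehicle and 1583 ± 27.8 CPM in Aucklandiae 500 and did not pass (0.041 ± 0.040, adjusted p = 0.63). SQSTM1, the autophagy receptor p62, rose from 749, 777 and 799.6 CPM to 889.6, 899.6 and 879 CPM (0.20 ± 0.031, adjusted p = 1.4e-05), and ALDH1A1, a retinal dehydrogenase abundant in these cells, fell from 6505, 6560.0 and 6537 CPM to 5672, 5788 and 5748 CPM (−0.19 ± 0.029, adjusted p = 1.0e-05).

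The promoter of GCLM is shown for its copy of the antioxidant response element, TGACNNNGC, through which NRF2 binds. In the 250 bases before the start (RefSeq, GRCh38.p14, chr1:93909431-93909680, minus strand), capitals mark the element, read on the opposite strand, 34 to 26 bases before the start.
GCLM promoter: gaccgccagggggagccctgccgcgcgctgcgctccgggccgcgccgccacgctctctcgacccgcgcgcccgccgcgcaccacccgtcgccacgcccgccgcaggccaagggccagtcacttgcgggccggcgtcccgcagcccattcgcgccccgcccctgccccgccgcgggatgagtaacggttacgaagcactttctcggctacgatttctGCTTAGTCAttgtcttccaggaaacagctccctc
On either strand, 10.9% of the 35116 windows hold these letters, some of which also hold TGANTCA, since both patterns can cover the same bases.

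All 3 enzymes of serine synthesis rose. Of 22 measured targets of the amino acid stress factor ATF4, 5 rose and 1 fell (median 0.072). PHGDH, the first enzyme of serine synthesis, rose from 58.1, 63.9 and 60.2 CPM to 76.1, 77.4 and 70.4 CPM (0.30 ± 0.043, edgeR adjusted p = 1.9e-06). PCK2, the mitochondrial phosphoenolpyruvate carboxykinase, rose from 28.3, 31.4 and 31.2 CPM to 37.9, 39.7 and 37.9 CPM (0.35 ± 0.052, adjusted p = 6.3e-06). PCK2 already stood at 36.2, 36.9 and 36.4 CPM at 20 µg/mL and did not pass against that dose (0.080 ± 0.052, edgeR adjusted p = 0.75). The next enzymes of the pathway, PSAT1 and PSPH, passed at 0.13 ± 0.040 and 0.18 ± 0.053 (adjusted p = 0.043 and 0.037), each losing its call with no filter on low counts and without several single libraries (up to 0.16 and 0.20). These were every library but Aucklandiae 500 replicate 3 for PSAT1, and Vehicle replicates 1 and 3 and Aucklandiae 500 replicates 2 and 3 for PSPH. The amino acid transporter gene SLC38A2 was the fifth riser (0.12 ± 0.035, adjusted p = 0.038), lost with no filter, without Vehicle replicate 2 and without any 1 Aucklandiae 500 library (up to 0.33). ATF4 itself was the 1 that fell (−0.15 ± 0.037, adjusted p = 0.0091, and up to 0.10 without Vehicle replicate 2 or Aucklandiae 500 replicate 3), and asparagine synthetase ASNS did not pass (0.15 ± 0.048, adjusted p = 0.055).

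Lipid genes rose in part. ANGPTL4 (chromosome 19, 8363289 to 8374373), a secreted inhibitor of lipoprotein lipase and a target of PPAR factors, rose from 21.8, 21 and 20.5 CPM in Vehicle to 28.7, 30.9 and 29.8 CPM (0.50 ± 0.061, edgeR adjusted p = 8.1e-08). It was intermediate at the lower doses, with 24.4, 24.1 and 26.3 CPM at 20 µg/mL and 27.4, 28.2 and 26.5 CPM at 100 µg/mL. CPT1A, which admits fatty acids to mitochondria, rose by 12.2% (adjusted p = 0.0063), and HILPDA, a lipid droplet protein, by 23% (adjusted p = 0.0017). In the PPAR target list 3 of 17 rose and 2 fell (median 0.038), the fallers being PDK4 (−0.35 ± 0.11) and FABP5 (−0.15 ± 0.045). Both calls were lost with 1 library left out, at adjusted p-values of up to 0.28 and 0.25. Only the fits without Aucklandiae 500 replicate 3 for PDK4 and without Vehicle replicate 3 for FABP5 kept them, and PDK4 was also lost in the 6 libraries alone. Of 14 measured genes of fatty acid synthesis 3 rose and none fell (median 0.075). Among these risers, ACACA was lost without any 1 of the 6 libraries (edgeR adjusted p up to 0.14). SREBF1 was lost without Vehicle replicate 1 or Aucklandiae 500 replicate 1 (up to 0.077). Against Aucklandiae 20, 0 genes of this list rose and 1 fell. Of 25 cholesterol genes 2 fell and none rose against Vehicle (median 0.0043). These were HMGCS1, an early enzyme of the mevalonate pathway (−0.18 ± 0.038, adjusted p = 0.0013), and INSIG1, which retains the sterol sensor in the endoplasmic reticulum (−0.20 ± 0.046, adjusted p = 0.0038). In glycolysis, PKM and LDHA, the enzymes of its last steps, fell by 14.2% and 11.4% (adjusted p = 2.8e-07 and 5.1e-05), the only 2 of 19 to pass.

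Early and feedback genes of MAPK signalling gave 5 falls and no rise among 24 measured (median −0.048). FOSL2, an AP-1 subunit, fell from 136, 147 and 145 CPM to 122, 124 and 124 CPM (−0.21 ± 0.049, edgeR adjusted p = 0.005), and the phosphatase genes DUSP4 and DUSP5, which switch off ERK in the nucleus, fell by 8.68% and 11% (adjusted p = 0.0029 and 0.0024). FOSL1 and SPRY4 passed at −0.30 ± 0.076 and −0.22 ± 0.069 (adjusted p = 0.0098 and 0.049). FOSL1 was lost without Vehicle replicate 1 or 3 or Aucklandiae 500 replicate 2 (up to 0.097), and SPRY4 without any 1 library, with no filter and with DESeq2 (up to 0.17). FOSL1 was lower still at 20 µg/mL, with 22.5, 21.3 and 22 CPM there against 31.8, 27.7 and 33.2 CPM in Vehicle and 25.3, 23.3 and 26.7 CPM at 500 µg/mL.

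In the list of IGF2, H19 and the IGF binding proteins, 4 of 14 fell and none rose (median −0.057). H19, an imprinted long non-coding RNA next to IGF2, fell from 131, 129 and 138 CPM to 80.0, 83.1 and 98.8 CPM (−0.60 ± 0.11, edgeR adjusted p = 2.7e-04). IGFBP5 fell from 18.9, 20.9 and 18.8 CPM to 14.8, 14.8 and 14.3 CPM (−0.41 ± 0.080, adjusted p = 4.4e-04). IGFBP3 and IGFBP4 passed at −0.21 ± 0.045 and −0.14 ± 0.045 (adjusted p = 0.0021 and 0.049). IGFBP3 was lost without Aucklandiae 500 replicate 1 (0.061), and IGFBP4 without Vehicle replicate 2 or 3 or Aucklandiae 500 replicate 1 or 3 (up to 0.24). IGF2 itself was at 9.16 ± 0.362 and 8.09 ± 0.895 CPM and did not pass.

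The other places among the 14 largest falls went to secreted regulators, a surface protein and genes of other kinds. BMPER, which binds bone morphogenetic proteins outside the cell, fell from 5.9, 6.11 and 5.83 CPM to 4.1, 3.84 and 4.55 CPM (−0.52 ± 0.10, edgeR adjusted p = 4.6e-04). It was the only call among the 20 measured genes of the BMP list. The ligand gene BMP7, which is not in that list, was barely detected and rose from a mean of 0.159 to 0.571 CPM (1.78, edgeR adjusted p = 0.0088). SMOC1, a matrix protein that modulates the same ligands, fell from 14.8, 14.8 and 15.4 CPM to 9.0, 10.3 and 11.5 CPM (−0.55 ± 0.084, adjusted p = 8.2e-06). CCBE1, a matrix protein needed for lymphatic vessel growth, fell from 9.18, 7.68 and 8.36 CPM to 5.5, 5.75 and 4.76 CPM (−0.64 ± 0.10, adjusted p = 1.0e-05). In BMPER, SMOC1 and CCBE1 the 2 groups were apart, which the rule for naming the 14 falls requires. TM4SF4, a tetraspanin-like surface protein, fell from 15.8, 14.1 and 15.2 CPM to 9.6, 9.18 and 10.8 CPM (−0.61 ± 0.080, adjusted p = 2.8e-07). CRYAB, a small heat shock protein, was the largest of the 14 falls named by rule, which leaves out clone-based, antisense and pseudogene names, from 4.69, 5.75 and 4.66 CPM to 2.05, 1.95 and 3.07 CPM (−1.11 ± 0.15, adjusted p = 9.3e-07), while none of 17 genes of the heat shock response passed. S100A3, a calcium-binding protein, went from 12.5 ± 0.13 to 8.84 ± 0.837 CPM (adjusted p = 2.4e-04). The lysosomal gene CD68, one of the blood markers, passed at −0.54 ± 0.14 (adjusted p = 0.017) and was lost without Vehicle replicate 2, Aucklandiae 500 replicate 1 or replicate 3 (up to 0.093). The non-coding RNAs LINC00707 and LINC03061 fell by 29.5% and 30.3% (adjusted p = 2.0e-08 and 0.0033). NPIPB5, 1 of a family of near-identical nuclear pore-interacting genes on chromosome 16 whose reads can be shared, fell from 63.5, 68 and 69.2 CPM to 43.3, 48.3 and 46.8 CPM (adjusted p = 3.4e-07).

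Some of the 14 rises named by rule, such as TMEM160 and PDF, were already above Vehicle at 20 µg/mL. Naming used the same Vehicle libraries, which favours this, and the share over all genes was not computed for that dose. TMEM160, a mitochondrial membrane protein, led the 14 rises, with 4.45, 6.32 and 7.7 CPM in Vehicle and 12.7, 13.7 and 10.7 CPM in Aucklandiae 500 (1.00 ± 0.25, edgeR adjusted p = 0.0098). The lower doses were as high, at 11.5, 12.6 and 14.8 CPM and 14.5, 12.5 and 11.6 CPM, and the means of the 5 other extracts lay between 8.92 and 11.9 CPM. Its call was lost without Vehicle replicate 1 or Aucklandiae 500 replicate 2 (adjusted p up to 0.083). Other named rises were PDF, which removes formyl groups from new mitochondrial proteins (10.1, 9.5 and 11.3 CPM, then 14.7, 14.4 and 15.8 CPM, adjusted p = 0.0032), PIF1, a DNA helicase (15.4, 14.5 and 14.8 CPM, then 21.8, 17.1 and 21.1 CPM, adjusted p = 2.9e-04), KCNH3, a potassium channel (0.57 ± 0.10, adjusted p = 1.9e-04), and PGPEP1, a peptidase (0.41 ± 0.086, adjusted p = 0.0014). Among the remaining rises, C4orf48, PLEKHF1, PLCXD3, ADORA2B, TMEM187, MAPK11 and CRNDE had levels of at most 12 CPM and log2 fold changes from 0.40 to 0.66. Each of these 7 lost its call without at least 2 single libraries, at adjusted p-values of up to 0.18, 0.09, 0.18, 0.085, 0.069, 0.18 and 0.08 in that order. The libraries whose omission cost the call were Vehicle 1 and 2 and Aucklandiae 500 replicates 1 and 2 for C4orf48, Vehicle 1 and 2 and Aucklandiae 500 replicate 1 for PLEKHF1, and Vehicle 2 and 3 and Aucklandiae 500 replicates 1 and 3 for PLCXD3. They were Vehicle 1 and Aucklandiae 500 replicate 1 for ADORA2B, Aucklandiae 500 replicates 1 and 2 for TMEM187, any of the 6 for MAPK11, and Vehicle 2 and Aucklandiae 500 replicate 3 for CRNDE.

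SFRP4 and TRIML2, like LAMA3 above, were highest at the top dose. SFRP4, a secreted antagonist of WNT signals, rose from 7.6, 8.28 and 6.93 CPM to 9.68, 9.42 and 11.4 CPM (0.41 ± 0.094, edgeR adjusted p = 0.0037, and 0.064 without Aucklandiae 500 replicate 3). TRIML2, a member of the tripartite motif family, rose from 40.1, 40.4 and 39.6 CPM to 54.2, 52.4 and 49.4 CPM (0.38 ± 0.056, adjusted p = 3.9e-06). At 20 and 100 µg/mL TRIML2 stood at 41.9, 37.6 and 37.3 CPM and 42.4, 44.1 and 41 CPM, around the Vehicle level.

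Comparison within the extract needs no Vehicle library. Against Aucklandiae 20, 182 genes passed (1.05%), of which 43 were higher (0.248%) and 139 lower (0.800%) at 500 µg/mL, and the slope over the 9 Aucklandiae libraries gave 175 of 15932 genes (1.10%), 42 rising (0.264%) and 133 falling (0.835%) per 5-fold step of dose. Single libraries moved these counts as well, to 113 without Aucklandiae 500 replicate 1, 105 without its replicate 2 and 113 without Aucklandiae 20 replicate 2 in the first comparison, and to 100, 81 and 113 without Aucklandiae 500 replicates 1, 2 and 3 in the slope. Both share the Aucklandiae 500 libraries with the comparison by which the 28 genes were named, so the values that follow are a description. Of the 14 named falls, 8 also passed against Aucklandiae 20 in the same direction, namely C3, GPX1, TM4SF4, CCBE1, BMPER, SMOC1, CRYAB and H19. Of the 14 named rises, ANGPTL4 and SFRP4 did. A rise missing the threshold there is not shown to be equal at both doses. Among the falls just listed, H19 and CRYAB did not pass in the slope (edgeR adjusted p = 0.48 and 0.060). The lowest H19 library at 20 µg/mL (91.5 CPM) lay below the highest at 500 µg/mL (98.8 CPM).

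The slope per 5-fold step of dose was −0.28 ± 0.030 on the log2 scale for C3 (edgeR adjusted p = 1.1e-05) and −0.21 ± 0.021 for GPX1 (adjusted p = 8.4e-07), the 2 named falls with the smallest slope p. SMOC1 passed in the slope (−0.30 ± 0.061, adjusted p = 0.034) although its levels at 20 and 100 µg/mL, 15.1, 15.9 and 16.9 CPM and 15.6, 15.7 and 15.1 CPM, were not below Vehicle. TGM2 and HMOX1, which moved between 100 and 500 µg/mL, missed the threshold for a straight slope (adjusted p = 0.053 and 0.054) and passed against Aucklandiae 20 (−0.50 ± 0.037 and 0.44 ± 0.044, adjusted p = 5.7e-15 and 1.6e-10). NPIPB5 shows the other pattern, with 53.3, 46.1 and 44 CPM at 20 µg/mL, −0.058 ± 0.070 between the doses and an adjusted p of 0.93. At 20 µg/mL HILPDA, NFE2L2 and NPM1 likewise had means of 22.1, 116 and 1744 CPM, nearer to Aucklandiae 500 than to Vehicle. They did not pass between the doses (edgeR adjusted p = 0.88, 0.69 and 0.89).

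**Figure D4:**
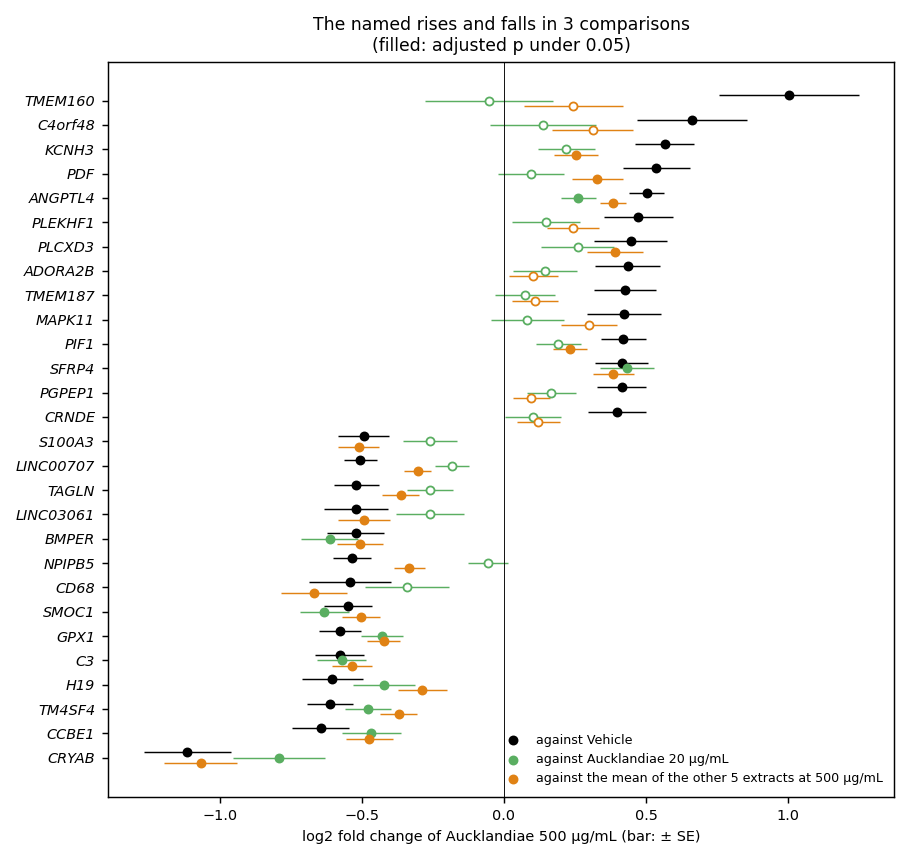
Log2 fold change of Aucklandiae 500 (horizontal axis, bars are 1 SE) for the 28 genes named by rule, against Vehicle in black, Aucklandiae 20 in green and the mean of the 5 other extracts at 500 µg/mL in orange, filled where the edgeR adjusted p is under 0.05. Among the 14 rises at the top 2 green points are filled, and among the 14 falls 8 green and all 14 orange points are filled.

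Other extracts at the same dose were compared next, without Vehicle. Against the mean of the 5 others at 500 µg/mL, 275 genes were higher (1.58%) and 432 lower (2.49%) with Aucklandiae, 707 in all (4.07%), and 361, 428 and 391 passed without Aucklandiae 500 replicate 1, 2 and 3. Of these 15 reference libraries 12 belong by name to other library sets than Aucklandiae and 3, those of Polygalae, to the same one, so that extract and library set cannot be told apart for most of them. All 14 named falls and 6 of the 14 named rises passed there in the same direction. The Aucklandiae 500 libraries by which these genes were named are used here again, so the counts are a description. CXCL5 was lower than in the mean of the others, with a log2 difference of −0.57 ± 0.046 (edgeR adjusted p = 9.9e-14), with group means of the 5 extracts between 51.1 and 81.4 CPM against 41 ± 3.43 CPM with Aucklandiae. TGM2 was lower too (−0.41 ± 0.030, adjusted p = 1.7e-15), its means in the others lying between 485 and 584 CPM. HMOX1 did not pass (0.10 ± 0.033, adjusted p = 0.061), and its lowest and highest mean among the others, 152 and 240.1 CPM, lay on both sides of Aucklandiae at 188 ± 10.2 CPM.

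Polygalae, whose libraries belong to the same set by name, differed in 2646 genes (15.2%), 1222 higher (7.04%) and 1424 lower (8.20%) with Aucklandiae. In this comparison within the set, 6 of the 14 named falls passed in the same direction (S100A3, LINC03061, NPIPB5, CD68, GPX1 and CRYAB), as did 5 of the 14 named rises (KCNH3, ANGPTL4, PLCXD3, PIF1 and SFRP4). These counts too are a description, because the same Aucklandiae 500 libraries were used for naming. H19 and PGPEP1 passed in the opposite direction to that against Vehicle (0.36 ± 0.11 and −0.24 ± 0.084, edgeR adjusted p = 0.026 and 0.04). TAGLN and TM4SF4 were above 0 without passing (0.12 ± 0.086 and 0.20 ± 0.090, adjusted p = 0.42 and 0.14). Of 25 cholesterol genes, 24 were lower with Aucklandiae than with Polygalae, with a median of −0.76. HMGCS1 stood at 161 ± 6.03 CPM with Aucklandiae and 318 ± 5.79 CPM with Polygalae (−0.98 ± 0.037, edgeR adjusted p = 6.0e-30), against 182 ± 0.157 CPM in Vehicle. INSIG1 stood at 35.4 ± 0.247 CPM and 82 ± 3.18 CPM (−1.21 ± 0.044, adjusted p = 6.4e-31). HMOX1 and SQSTM1 were lower than with Polygalae too (−0.35 ± 0.043 and −0.91 ± 0.032, adjusted p = 1.7e-09 and 1.2e-31). PHGDH and ANGPTL4 gave 0.76 ± 0.045 and 0.88 ± 0.066 against Polygalae (adjusted p = 3.6e-21 and 1.4e-16), and the mesenchymal list had 13 of 23 genes higher and 2 lower.

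**Figure D5:**
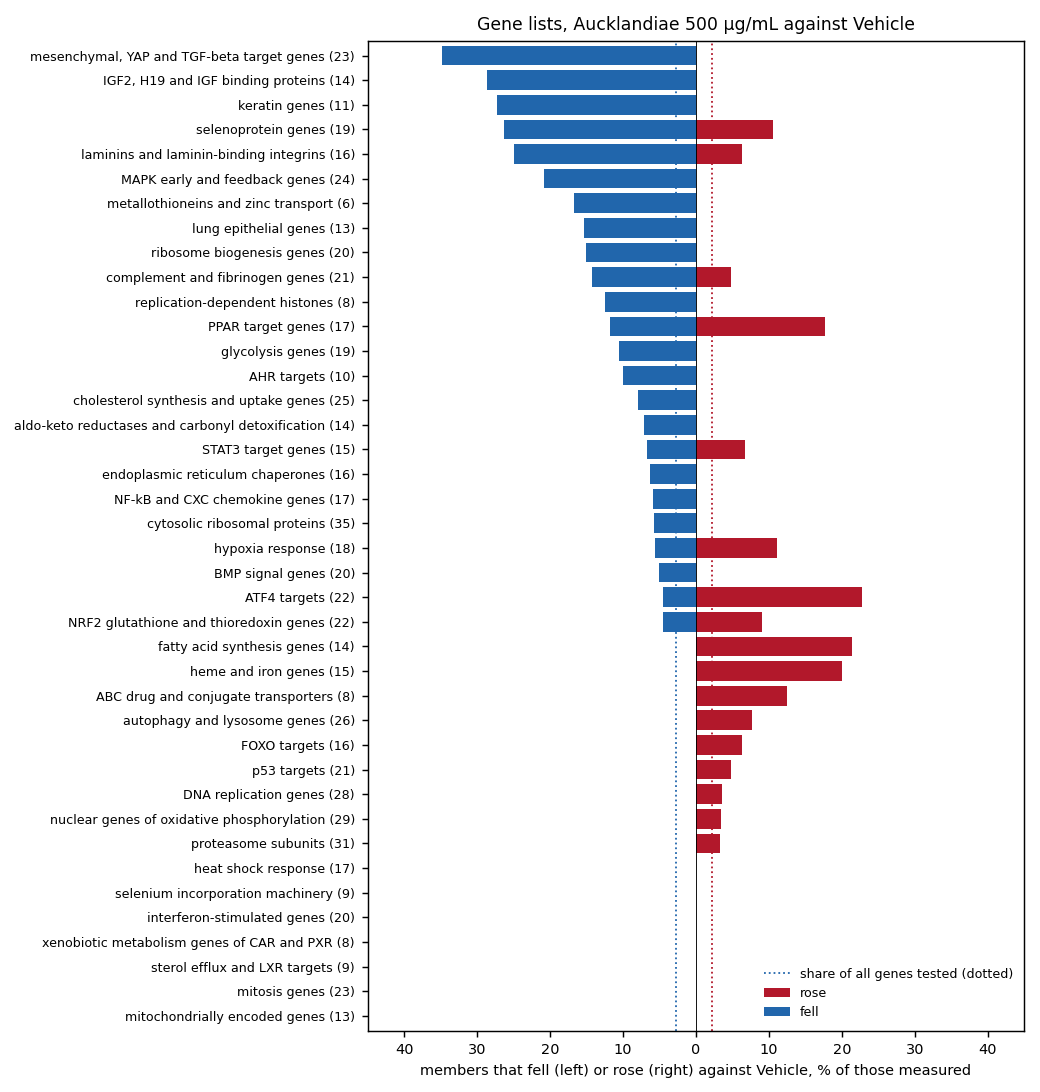
Share of each gene list that fell (blue, to the left) or rose (red, to the right) in Aucklandiae 500 against Vehicle, as percent of the members measured (number in parentheses, lists with at least 6). Dotted lines are the shares over all genes tested, 2.69% and 2.24%; the mesenchymal list reaches furthest left with 8 of 23 genes and the ATF4 targets furthest right with 5 of 22.

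Several lists held no call against Vehicle, among them mitosis (23 genes), the interferon response (20), sterol efflux (9) and the selenium machinery (9). DNA replication, p53 targets and FOXO targets had 1 rise each, POLD1, GDF15 and KLHL24, and no fall. POLD1 was lost without Vehicle replicate 2 (adjusted p = 0.089) and KLHL24 without Vehicle replicate 3 or Aucklandiae 500 replicate 2 (up to 0.075). The messages of mitochondrial DNA lay below Vehicle in 13 of 13 cases with a median of −0.21, yet none passed. Their median against Aucklandiae 20 was 0.041, and the part of the mitochondrial share of counts in the calls was not tested. Ribosome biogenesis genes fell in 3 of 20 cases, with NPM1, a nucleolar chaperone, going from 1941 ± 50.0 to 1700.2 ± 34.7 CPM (edgeR adjusted p = 2.6e-04). The others were NCL, lost without Vehicle replicate 3 or Aucklandiae 500 replicate 3 (up to 0.099), and GNL3. The call of GNL3 was lost without any single library and with no filter on low counts (up to 0.13). None of the 20 passed against Aucklandiae 20 or against the mean of the other extracts. Most of the 6 rises and 16 falls of at least 2-fold were of antisense, unnamed or barely detected genes. FP236383.2 and FP236383.3, lincRNA entries with Vehicle means of 152 CPM each, summed to 276 to 318 CPM in Vehicle and to 107 to 156 in Aucklandiae 500, 121 to 172 at 20 µg/mL and 73.4 to 126 at 100 µg/mL, so that all 3 doses lay below Vehicle. The same sum was 39.1 to 162 CPM in the 18 libraries whose names begin with 3 and 39.6 to 159 CPM in the 9 of Polygalae, and 180 to 353 CPM in the 18 whose names begin with 2, so that low values go with names in 3 and 4 and are not particular to Aucklandiae.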

How the data were processed

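RNA of A549 cells was sequenced in 60 libraries, 3 in each of 20 groups. The authors' deposited table holds expected counts for 60675 genes; 10.68% of its values are not whole. According to the submitters' processing notes, STAR 2.7.3a and RSEM 1.3.3 were used, along with FastQC 0.11.9 and Trim Galore 0.6.5. No source used here gives the strand setting or the annotation release. Symbols came from a gene table (41209) or GENCODE 29 (15846), whose GRCh38 positions are printed, and 3620 genes had none.

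Expected counts were rounded and tested with edgeR 4.0.16 (R 4.3.3, limma 3.58.1): TMM, filterByExpr by group, 1 mean for each of 20 groups over 60 libraries (at most 40 residual degrees of freedom), the robust quasi-likelihood test, two-sided, and Benjamini-Hochberg adjustment over all genes tested, with a threshold of 0.05. Values are given with 1 SE of the log2 fold change, or as mean ± SD, n = 3. The dose slope used the 9 Aucklandiae libraries. Alternatives were DESeq2 1.42.0, other size factors, no filter on low counts, a replicate block, only the libraries compared and each library left out. The fit without 2 groups was chosen after seeing the data. The tests were checked on simulated data.

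Genes were named by rule: the 14 largest rises and 14 largest falls among called genes with a symbol (no clone-based, antisense or pseudogene names), a mean of at least 5 CPM in either group and no overlap between libraries, up to 6 called members of each of 43 lists, and a panel. Members and lists were chosen with earlier results of these data known. Labels do not say that replicates were separate cultures, so p-values measure the spread between these libraries, which may be technical. Some genes that the rule names are not reported here.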

Additional observations from a re-analysis of the deposited data

How the results depend on the processing

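Against Vehicle, 857 genes passed; 1840 did in the 6 libraries fitted alone, 1515 without the groups Polygalae 20 and Liriopis 500, and 418 to 671 with 1 library left out. Against Aucklandiae 20, 182 passed, 280 with no filter on low counts (98 higher, 182 lower), 280 without those 2 groups and 105 to 137 with 1 library left out. The slope gave 175 genes, 327 with no filter and 81 to 205 with 1 library left out. Against the mean of the other 5 extracts 707 passed, and 361 to 736 with 1 library left out; against Polygalae 500 the counts were 2646 and 2115 to 2186. Other size factors, DESeq2 and the replicate block stayed within 1.5 times of each count. With the replicate number as a block, 909, 197, 230, 734 and 2657 genes passed in the same order. The labels do not say what a number stands for, and deviations of same-numbered Aucklandiae 500 and Vehicle libraries correlated at 0.0123 to 0.1355, 2 of 3 best with their own number. With Aucklandiae 20 these correlations were 0.0596 to 0.1012, with Polygalae 500 0.0542 to 0.1486 and with Aucklandiae 100 0.1301 to 0.2462, 3 of 3 best with their own number in each. Not every pair within a comparison, the slope included, was over 0.1, so the numbers were not taken as pairs, though the data hint at them among libraries whose names begin with 4. Of the 106 named genes that passed against Vehicle, 63 passed under every alternative that gave an adjusted p, and no gene that passed turned its direction; of those that did not pass, TXNRD1 ran from −0.0068 to 0.0144 and CYP1A1 from −0.0994 to 0.2735 on the log2 scale. The cause of these differences in counts was not tested. With 3 libraries a group and 22.6 to 29.6 M counts in each Aucklandiae 500 library, small differences of low genes were not detectable.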
